A study of Rattus norvegicus with 4 samples.

Results

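The Sox and POU class 3 transcription factors of neural progenitors were followed in embryonic telencephalon of Pax6 mutant and wild-type rats. They were taken as every probe set whose single gene symbol was Sox1, Sox2, Sox3, Sox9, Sox11, Sox21, Pou3f1, Pou3f2, Pou3f3 or Pou3f4. This gave 12 probe sets of 9 genes, out of 31042 probe sets and 14217 genes with a probe set of 1 symbol. No probe set carried Sox9 as its single symbol, and Sox9 was not analysed here. The Pax6 mutant group was telencephalon of homozygous rSey2/rSey2 rat embryos (2 arrays), and the wild-type group was telencephalon of WT embryos (2 arrays). Both groups were taken at E11.5 on a Sprague-Dawley background, and the label names no other allele or treatment. RNA from 13 telencephalons is named in the design text, so each array stands for pooled embryos, but it does not say if separate pools of 13 were used for the arrays. The labels call the arrays biological replicates without naming litters, so a p-value reflects how far these arrays scatter, and some of that scatter may be technical.

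The Sox proteins bind DNA through an HMG box, and the POU proteins through a POU-specific domain joined to a homeodomain. Sox1, Sox2 and Sox3 form the SoxB1 group, which keeps neural cells in the progenitor state, while Sox21 of the SoxB2 group acts mainly as a repressor. Sox11, of the SoxC group, is best known from cells that start to become neurons. Pou3f1 to Pou3f4 (Oct-6, Brn-2, Brn-1 and Brn-4) are expressed in the developing forebrain, and POU factors recognise the octamer sequence, often next to a Sox site, as in the neural enhancer of nestin in the mouse. Pax6 is a paired-box factor, and in the lens it pairs with Sox2 on DNA.

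The upstream sequences are shown for the SoxB1 genes Sox2 and Sox3, which lay on opposite sides of zero below, and for Pou3f4, which had the largest difference. Each window runs from 250 bases before to 50 bases after the RefSeq start of the gene (build GRCr8), 5′ to 3′ on the strand of the gene. Capitals mark the octamer core ATGCAAA and the CCAAT box, each on either strand. The windows are chr2:119464881-119465180 (+ strand) for Sox2, chrX:144346922-144347221 (- strand) for Sox3 and chrX:79974558-79974857 (+ strand) for Pou3f4.
Sox2: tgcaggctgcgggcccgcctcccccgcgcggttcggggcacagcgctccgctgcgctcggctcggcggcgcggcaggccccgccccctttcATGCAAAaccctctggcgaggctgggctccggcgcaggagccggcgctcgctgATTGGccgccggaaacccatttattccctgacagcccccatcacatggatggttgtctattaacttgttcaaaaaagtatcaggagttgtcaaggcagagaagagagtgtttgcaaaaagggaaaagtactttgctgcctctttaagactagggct
Sox3: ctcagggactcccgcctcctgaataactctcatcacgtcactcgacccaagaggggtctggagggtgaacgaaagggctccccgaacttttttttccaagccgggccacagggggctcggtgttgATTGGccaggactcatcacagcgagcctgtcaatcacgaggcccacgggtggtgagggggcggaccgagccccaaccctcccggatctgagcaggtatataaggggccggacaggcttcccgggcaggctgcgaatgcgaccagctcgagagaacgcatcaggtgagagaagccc
Pou3f4: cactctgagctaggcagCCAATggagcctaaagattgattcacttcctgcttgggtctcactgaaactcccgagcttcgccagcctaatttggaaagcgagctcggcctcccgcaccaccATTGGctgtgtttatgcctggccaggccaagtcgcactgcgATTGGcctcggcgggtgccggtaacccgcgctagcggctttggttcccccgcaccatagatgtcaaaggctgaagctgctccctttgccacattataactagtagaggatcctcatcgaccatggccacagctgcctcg

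A set of 4 motifs was searched on both strands, and no match overlapped another. The table held windows for 6 of the 10 listed genes (Sox2, Sox3, Sox11, Sox21, Pou3f2 and Pou3f4). Their GC content ran from 57.3% (Pou3f4) to 65.7% (Sox21), against a median of 51.7% over all windows, and the shares below do not allow for this. The octamer core ATGCAAA was in the Sox2 window, at -159 from the start, and in 4.68% of 33469 windows of the same length. The CCAAT box, named by its letters, was in the windows of Sox2, Sox3, Sox11 and Pou3f4, and in 37.5% of all windows. Pou3f4 held 3 copies of it, at -233, -130 and -89. The Sox core ACAAT was in none of the 6 windows, against 33.7% of all windows, and the homeodomain palindrome TAATTA was in none, against 5.36%. These matches describe the letters in the windows, and binding was not measured.

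Values are GCRMA values on the log2 scale, 1 per probe set and array, so a difference of 1 is a doubling. The table spans 2.07, a lowest value common to all arrays, to 16.13, and between 5333 and 5462 probe sets per array lay at the lowest value. The median over 18625 tested probe sets ran from 8.22 to 8.35 in the mutant arrays and from 8.24 to 8.33 in the wild-type arrays. Probe sets with a mean under 3.21 were left out as dim. Of the 12 Sox and POU3 probe sets, 10 passed, covering 8 genes. Pax6 itself had values of 11.78 and 11.63 in the mutant and 11.75 and 11.85 in wild type, a difference of -0.09 (SE 0.10), so its transcript level is no check of the genotypes. Of 7 tested telencephalon markers 4 were higher and 3 lower in the mutant, with a median of 0.03 and with 0 at an unadjusted p under 0.05 in limma. Otx1 had a difference of -0.50 (SE 0.43), Otx2 of 0.24 (SE 0.18) and Six3 of 0.18 (SE 0.07). Leaving out mutant replicate 1 or 2 gave a telencephalon median of 0.21 or 0.14. Lhx2 lay between 13.24 and 13.42 in the mutant and between 13.01 and 13.05 in wild type. Emx2 lay at 10.45 and 10.50 in the mutant and 10.54 and 10.59 in wild type. Emx1 was dim.

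The 3 measured POU3 genes had higher values in the mutant, by 0.39 to 0.66 on the log2 scale, and Sox3 had lower values, by 0.28. Sox2 was higher by 0.22 to 0.35 on each of its 3 tested probe sets. Sox1, Sox11 and Sox21 differed by 0.02 to 0.18, less than the spread between the mutant arrays. That spread also exceeded the difference for Pou3f1, Pou3f4, Sox3 and Sox2 1375153_at and 1381874_at. It did not for Pou3f3 and Sox2 1379942_at. In limma 0 of these 10 probe sets were called at an adjusted p of 0.05 (adjusted p = 1 for each), and percent called over all 18625 probe sets was 0. At an unadjusted p of 0.05, 1 of the 10 (Pou3f3) was under the threshold, against 3.65% of all tested probe sets. With 2 arrays against 2, an exact permutation test cannot reach a two-sided p below 0.33.

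**Figure D1:**
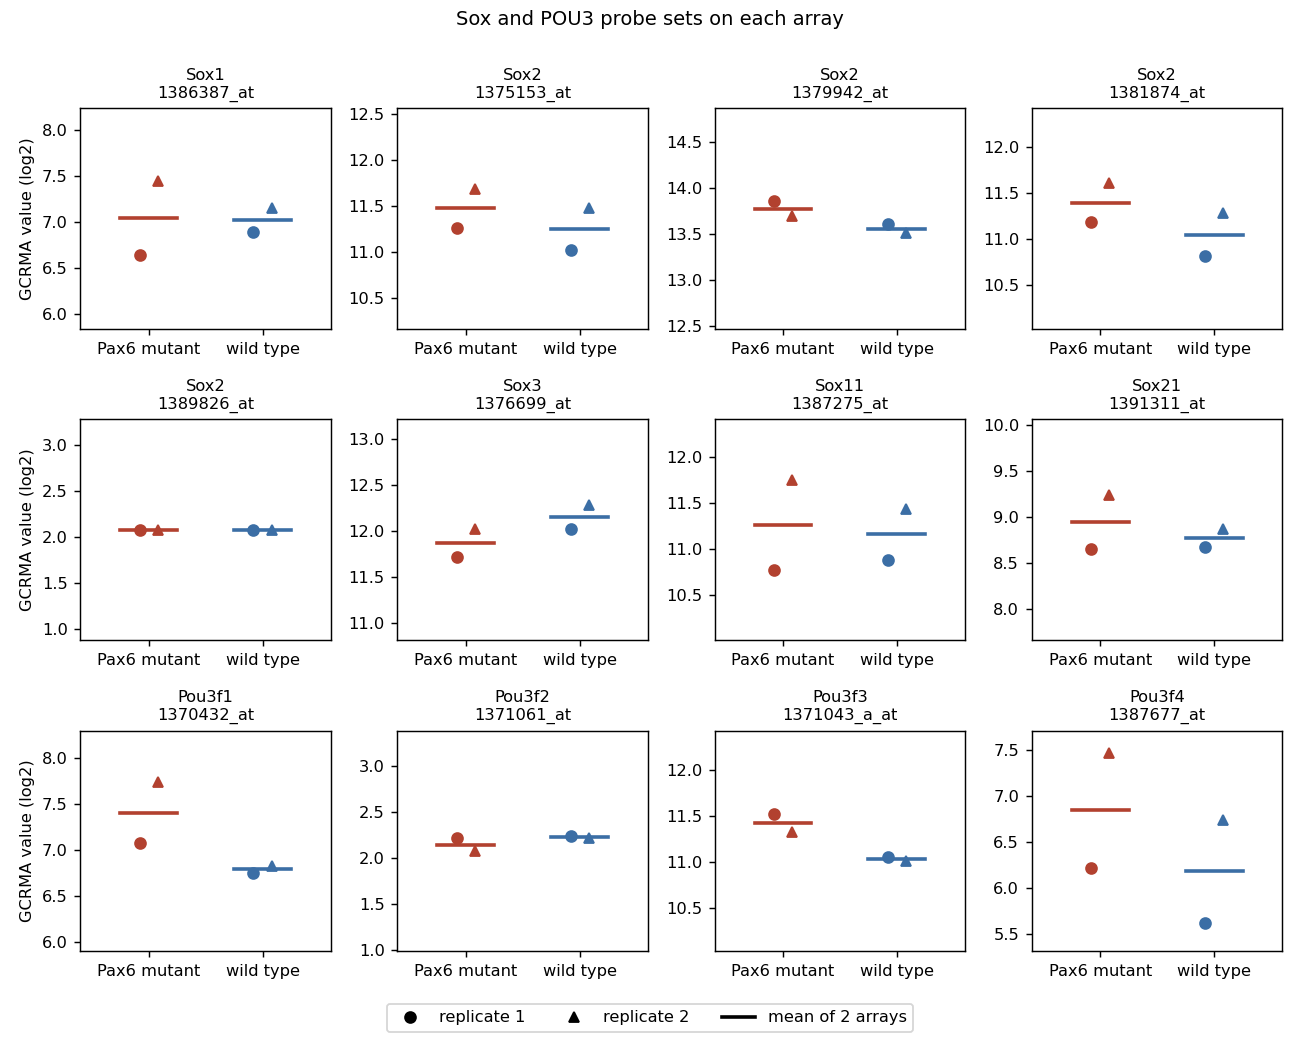
GCRMA values (log2) of the 12 Sox and POU3 probe sets on each array, with Pax6 mutant at the left and wild type at the right of each panel; points are arrays, lines are means of 2 arrays, and every panel spans the same log2 range. Pou3f1, Pou3f3 and Sox2 1379942_at separate the genotypes upward, and Sox3 downward by a gap of 0.0017. Except on Pou3f3 and Sox2 1379942_at, the arrays of each tested probe set differ more within a genotype than between the means.

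Pou3f3 (Brn-1), a factor of upper-layer cortical neurons and their progenitors, was at 11.53 and 11.32 in the mutant arrays and at 11.06 and 11.01 in the wild-type arrays. Both mutant arrays lay above both wild-type arrays, with a gap of 0.26 between the groups. The means were 11.42 ± 0.14 in the mutant and 11.04 ± 0.03 in wild type (SD, n = 2 each). The difference of 0.39 (SE 0.11) is a 1.31-fold higher level, with a 95% interval of 1.05 to 1.64-fold. In this fit its interval was the only one of the 10 to lie on one side of zero (limma unadjusted p = 0.0298, adjusted p = 1). That did not hold in every setting: after median centring the unadjusted p was 0.0729 for Pou3f3 and 0.0287 for Pou3f1 (limma adjusted p = 1 for both). A difference at least this high was seen in 3.57% of all tested probe sets.

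Pou3f1 (Oct-6), known also for its role in myelinating Schwann cells, was at 7.08 and 7.73 in the mutant and at 6.75 and 6.83 in wild type. The groups did not overlap, but the mutant arrays lay 0.66 apart and the wild-type arrays 0.08. Its means were 7.41 ± 0.46 in the mutant and 6.79 ± 0.06 in wild type (SD, n = 2 each). The difference of 0.62 (SE 0.27), or 1.53-fold, had a 95% interval from -0.20 to 1.43. Without mutant replicate 1 it was 0.95, and without mutant replicate 2 it was 0.29.

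Pou3f4 (Brn-4), an X-linked factor of the ventral forebrain and inner ear, was at 6.21 and 7.47 in the mutant and at 5.61 and 6.74 in wild type. The groups overlapped, and replicate 2 was the higher array in both genotypes, by 1.26 in the mutant and 1.13 in wild type. Its difference was the largest of the 10 probe sets, at 0.66, and its SE was as large, at 0.66. The 95% interval, from -1.36 to 2.69, spans both a lower and a higher level. The difference was 0.03 without mutant replicate 2 and 1.29 without mutant replicate 1.

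Pou3f2 (Brn-2), a close relative of Pou3f3, was at 2.22 and 2.08 in the mutant and at 2.24 and 2.22 in wild type. All 4 values lay near the lowest value of the table, under the dim level of 3.21. No difference could be measured on this probe set, and a dim probe set does not show that the gene is silent.

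Sox2, the SoxB1 factor that marks neural progenitors throughout the neural tube, had 4 probe sets. The first (1379942_at) was at 13.86 and 13.69 in the mutant and at 13.60 and 13.51 in wild type. Both mutant arrays lay above both wild-type arrays, with a gap of 0.09. The difference was 0.22 (SE 0.10), or 1.17-fold, with a 95% interval from -0.09 to 0.53.

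The second Sox2 probe set (1375153_at) was at 11.26 and 11.68 in the mutant and at 11.02 and 11.48 in wild type, a difference of 0.22 (SE 0.25). The third (1381874_at) was at 11.19 and 11.61 in the mutant and at 10.82 and 11.28 in wild type, a difference of 0.35 (SE 0.26). On both, the groups overlapped and replicate 2 was the higher array in each genotype, whereas on 1379942_at replicate 1 was. The fourth (1389826_at) lay at the lowest value of 2.07 on all 4 arrays. The 3 tested probe sets thus gave the same sign with all 4 arrays, but they read the same RNA and are not replicates. With 1 array left out, 1379942_at ran from 0.14 (mutant replicate 1 out) to 0.31 (mutant replicate 2 out). In the same way 1375153_at ran from -0.0077 (wild-type replicate 1 out) to 0.45 (wild-type replicate 2 out), and 1381874_at from 0.11 to 0.58 with the same arrays out. In human and mouse, Sox2 lies inside the long noncoding gene Sox2ot, and the sources used here do not give which transcript each probe set reads.

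Sox3, an X-linked SoxB1 factor with much the same DNA-binding domain as Sox2, was at 11.72 and 12.02 in the mutant and at 12.02 and 12.28 in wild type. Both mutant arrays lay below both wild-type arrays, though the gap was 0.0017. The means were 11.87 ± 0.22 in the mutant and 12.15 ± 0.18 in wild type (SD, n = 2 each). The difference of -0.28 (SE 0.17), or 0.82-fold, had a 95% interval from -0.80 to 0.23. It was -0.13 without mutant replicate 1 and -0.43 without mutant replicate 2. Whether Sox2 and Sox3 differ from each other in their response was not tested.

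Sox1, the third SoxB1 factor, was at 6.65 and 7.45 in the mutant and at 6.90 and 7.16 in wild type. The wild-type values lay between the mutant values. The difference of 0.02 (SE 0.34) had a 95% interval from -1.01 to 1.05, so a change of 2-fold in either direction was within it. The sign turned to -0.38 without mutant replicate 2 and to -0.11 without wild-type replicate 1.

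Sox21 was at 8.66 and 9.24 in the mutant and at 8.68 and 8.88 in wild type, with both wild-type arrays between the mutant arrays. Its difference was 0.18 (SE 0.25), and -0.12 without mutant replicate 2. Sox11 was at 10.78 and 11.75 in the mutant and at 10.89 and 11.44 in wild type, again with the wild-type arrays between the mutant ones. Its difference was 0.10 (SE 0.44), with a 95% interval from -1.25 to 1.45. Without mutant replicate 2 it was -0.39, without wild-type replicate 1 it was -0.18, and without mutant replicate 1 it was 0.59. For both genes mutant replicate 2 held the highest and mutant replicate 1 the lowest of the 4 values. As on Pou3f4, replicate 2 was the higher array in both genotypes for Sox1, Sox3, Sox11, Sox21 and Pou3f1.

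**Figure D2:**
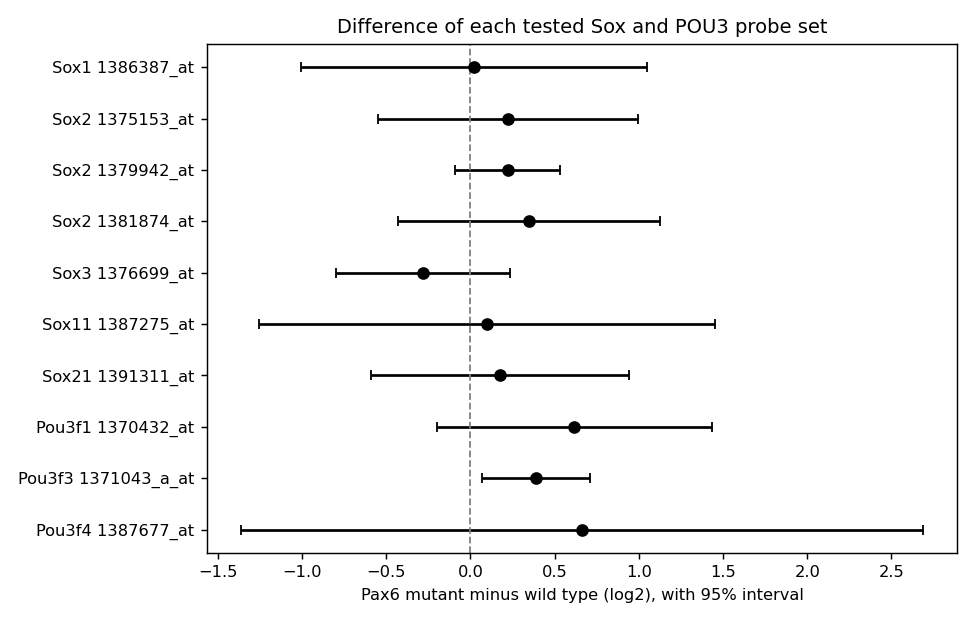
Difference (Pax6 mutant minus wild type, log2) of the 10 tested Sox and POU3 probe sets, with points at the limma estimate and bars for the 95% interval. The interval of Pou3f3, from 0.07 to 0.71, lies above zero, and the other 9 include zero.

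Counted together, both mutant arrays lay above both wild-type arrays for 3 of the 10 tested probe sets (Sox2 1379942_at, Pou3f1 and Pou3f3), against 11.4% of all tested probe sets. Both lay below for 1 of 10 (Sox3), against 11.8%. With 10 probe sets and 3 of them from Sox2, these counts are descriptions. The count above was 9 with mutant replicate 1 left out, against 38.8% of all tested probe sets in that setting, and 6 with wild-type replicate 2 left out, against 30.4%. The count below was 4 with mutant replicate 2 left out, against 38.6%. These shares are higher because fewer arrays have to be separated.

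With each gene represented by its brightest probe set, 7 of the 8 tested genes had a higher mean in the mutant, against 49.7% of all 9840 tested genes. Their median difference was 0.20, against 0 over all tested genes. Setting each mutant array against each wild-type array gave 4 medians from -0.36 to 0.56, a wider range than the median itself. The lowest and the highest came from arrays of unlike replicate number (mutant 1 with wild type 2, and mutant 2 with wild type 1). Leaving out mutant replicate 1 gave 0.45, and leaving out wild-type replicate 1 or 2 gave 0.09 or 0.32. With mutant replicate 2 left out the median was -0.041, with 4 of 8 genes higher. The sign of the group median thus turned with 1 array left out. For most of these genes replicate 2 was the higher array in both genotypes. Leaving out 1 array therefore also unbalanced the replicate numbers between the genotypes, and the part of this in the turned sign was not tested. Pou3f1, Pou3f3, Pou3f4, Sox3 and 2 of the 3 Sox2 probe sets kept their sign whichever array was left out. For Pou3f4 the difference fell to 0.03 without mutant replicate 2, which set mutant replicate 1 against both wild-type arrays. For this gene wild-type replicate 2 lay 1.13 above wild-type replicate 1. With all 4 arrays the SE of Pou3f4 (0.66) was as large as its difference, so its sign is not settled.

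**Figure D3:**
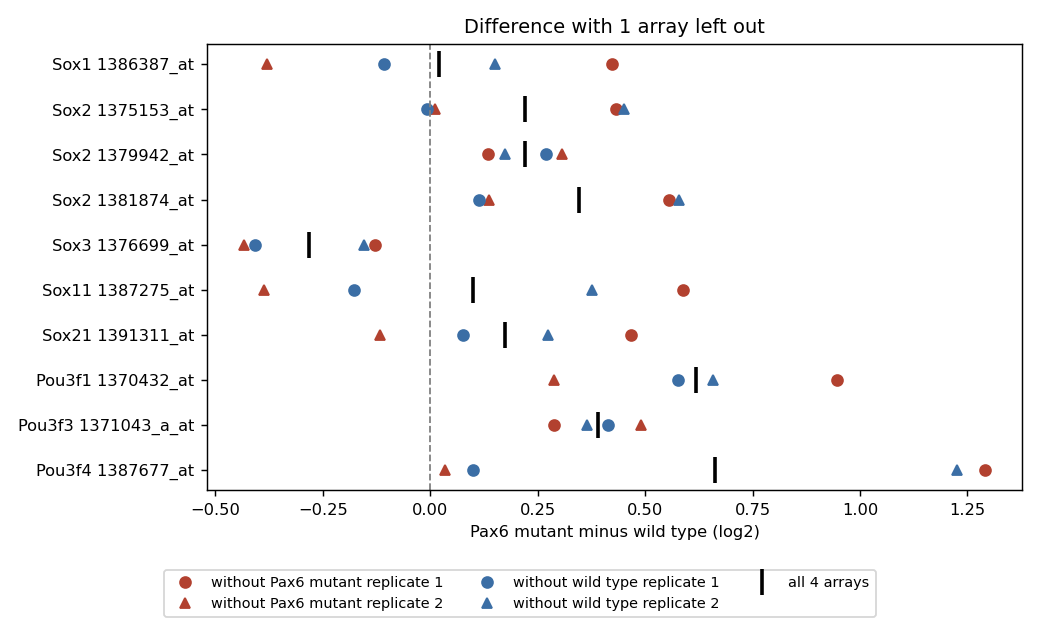
Difference (Pax6 mutant minus wild type, log2) of each tested probe set with 1 array left out (symbols) and with all 4 arrays (bars). Pou3f3 stays between 0.29 and 0.49, whereas Sox1 runs from -0.38 to 0.42 and Sox11 from -0.39 to 0.59.

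The other Sox genes showed no shared direction. Of 13 listed, 6 were tested, 2 were higher and 4 lower in the mutant, 0 passed in limma (1 at an unadjusted p under 0.05), and the median was -0.03. It was 0.13 without wild-type replicate 1. Sox18, a factor of vascular endothelium, was at 8.39 and 8.57 in the mutant and at 8.02 and 8.15 in wild type, a difference of 0.39 (SE 0.11). Sox7, also endothelial, differed by 0.34 (SE 0.22), and Sox17, known from endoderm and arteries, by -0.05 (SE 0.19). Sox13 differed by -0.35 (SE 0.20) and Sox6 by -0.04 (SE 0.12).

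Sox4, the SoxC partner of Sox11, differed by -0.02 (SE 0.07) on its brightest probe set. Its values there were 13.00 and 12.96 in the mutant and 13.00 and 13.01 in wild type, so the 4 arrays were close together. The 5 other tested Sox4 probe sets differed by -0.32 to -0.13. Sox10, the factor of neural crest and glia, was dim, as were Sox12 and Sox15. Of the other POU genes 2 of 10 were tested: the widely expressed Oct-1 gene Pou2f1 differed by -0.40 (SE 0.28), and Pou2f2 had the same value, 3.24, on all 4 arrays.

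Other genes of neural progenitors had 11 higher and 11 lower of 22 tested, 0 past the threshold in limma (2 at an unadjusted p under 0.05) and a median of -0.01. Leaving out wild-type replicate 1 or 2 gave a median of -0.12 or 0.05, and leaving out mutant replicate 1 or 2 gave 0.01 or -0.07. Both mutant arrays lay below both wild-type arrays for 6 of the 22 (Fabp7, Gli2, Fgfr3, Slc1a3, Msi2 and Fgfbp3), against 12.1% of all tested genes. Both lay above for 2 of the 22, against 12.2%. Nes, the intermediate filament gene with a Sox and POU site in its mouse enhancer, was at 10.03 and 10.07 in the mutant and at 9.85 and 10.09 in wild type. Its difference was 0.08 (SE 0.12). Fabp7, a fatty-acid-binding protein gene whose mouse enhancer also holds a POU site, was at 4.89 and 4.56 in the mutant and at 11.83 and 12.15 in wild type, the largest gap in the list (limma adjusted p = 0.196).

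After Fabp7, the largest differences among the brightest probe sets of these progenitor genes were those of Gli2, Notch1, Hmga2 and Id4. Gli2, a Hedgehog pathway factor, differed by -0.55 (SE 0.30) and the chromatin protein gene Hmga2 by -0.41 (SE 0.47). The receptor gene Notch1 differed by 0.41 (SE 0.15) and the HLH inhibitor Id4 by 0.35 (SE 0.32). None of these passed. Dimmer tested probe sets of Fgfr3 (-0.84) and Msi2 (-0.72) differed by more, against -0.35 and -0.21 on the brightest probe sets of these genes.

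**Figure D4:**
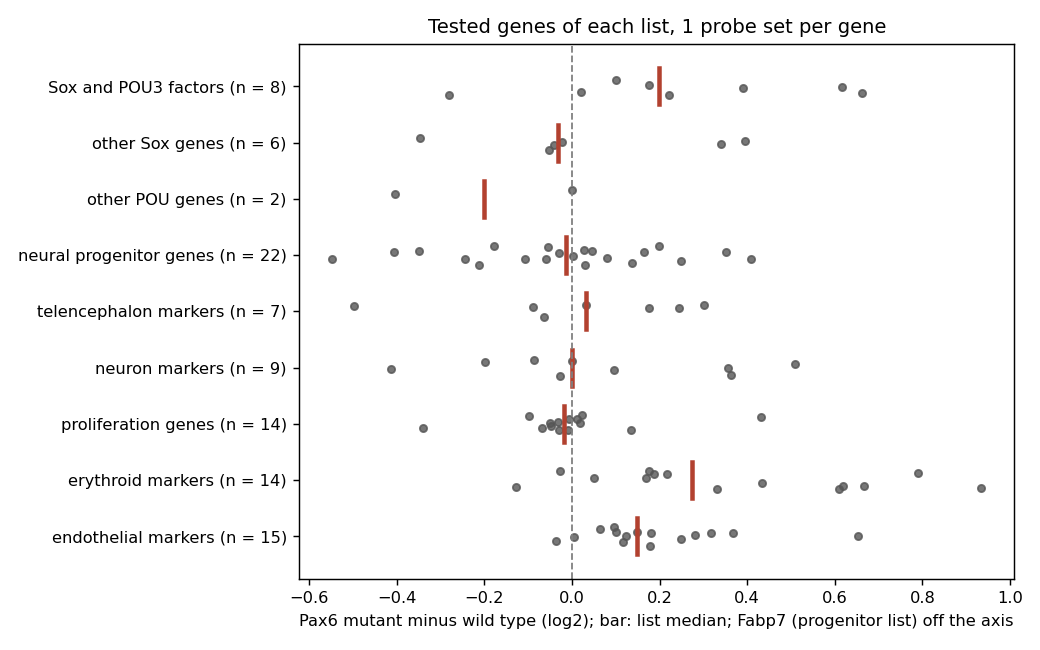
Difference (Pax6 mutant minus wild type, log2) of the tested genes of 9 lists, 1 probe set per gene, with points for genes and bars for list medians; Fabp7 of the progenitor list lies off the axis. The Sox and POU3 median (0.20) lies between those of the endothelial (0.15) and erythroid (0.27) markers, and the progenitor, neuron and proliferation medians lie near zero.

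Markers of blood, vessels and eye had mostly higher values in the mutant arrays as well, with 0 past the adjusted threshold in limma (3 erythroid, 1 endothelial and 1 eye marker at an unadjusted p under 0.05). Of all 9840 tested genes, 353 were at an unadjusted p under 0.05 in limma. Of 14 tested erythroid markers (18 listed), 12 were higher in the mutant, against 49.7% of all tested genes, with a median of 0.27. That median ran from 0.21 (wild-type replicate 1 out) to 0.36 (wild-type replicate 2 out). Both mutant arrays lay above both wild-type arrays for 8 of the 14, against 12.2% of all tested genes. Both lay below for 0, against 12.1%. The mean log2 level of the erythroid markers was 9.07 and 9.14 in the mutant arrays and 8.64 and 8.85 in the wild-type arrays. Of 15 tested endothelial markers (18 listed), 14 were higher, with a median of 0.15. Both mutant arrays lay above both wild-type arrays for 4 of these 15 markers and below for 0, against the same shares. Their mean log2 level was 7.53 and 7.81 in the mutant and 7.41 and 7.55 in wild type, and the median became 0.29 or 0.02 on leaving out mutant replicate 1 or 2, and 0.24 on leaving out wild-type replicate 2. Of the 3 vascular Sox genes named above, Sox18 and Sox7 had higher means in the mutant and Sox17 a lower one. In bulk tissue, more cells of a type and more RNA per cell cannot be told apart.

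Among 5 tested eye markers (12 listed), 4 were higher, with a median of 0.24 and a mean log2 level of 8.85 and 8.88 in the mutant and 8.53 and 8.77 in wild type. Leaving out wild-type replicate 1 or 2 gave a median of 0.05 or 0.44. The optic vesicle genes Rax and Six6 differed by 0.57 (SE 0.21) and 0.49 (SE 0.14), while Pax2, Vax2 and Tyr were dim. Otx2, counted also among the telencephalon markers, differed by 0.24 (SE 0.18), Dct by 0.06 (SE 0.24) and Mitf by -0.30 (SE 0.21). Neuron markers had 4 higher and 4 lower of 9 tested, with a median of 0, with 2 at an unadjusted p under 0.05. That median was set by Ina, which had the same value, 4.32, on all 4 arrays. Leaving out mutant replicate 1 or 2 gave a neuron median of -0.09 or 0.14. Of 3 tested neural crest markers 2 were higher and 1 lower, and Foxd3 and Erbb3 were dim. Ets1, which vessels also express, was at 10.79 and 10.72 in the mutant and at 10.47 and 10.50 in wild type (limma unadjusted p = 0.0296, adjusted p = 1). Tfap2a differed by 0.05 (SE 0.21) and Tfap2b by -0.19 (SE 0.17). Proliferation genes had 5 higher and 9 lower of 14, with a median of -0.02 and 1 (Top2a, -0.34, SE 0.11) at an unadjusted p under 0.05. Both mutant arrays lay below both wild-type arrays for 3 of these 14 genes and above for 2, against 12.1% and 12.2% of all tested genes. Mesenchyme markers had 6 higher and 6 lower of 12 tested (median 0.01, 2 at an unadjusted p under 0.05), and 8 of 9 macrophage markers were dim. Leaving out mutant replicate 1 or 2 gave a mesenchyme median of 0.14 or -0.18. Surface ectoderm markers had 3 higher and 3 lower of 7 tested, with 3 at an unadjusted p under 0.05 and 0 past the adjusted threshold in limma. These 3, against 353 of all 9840 tested genes, were the keratin gene Krt18 (-0.73, SE 0.10) and the adhesion genes Epcam (-0.92, SE 0.30) and Cdh1 (0.59, SE 0.14). The surface ectoderm median of 0 was set by Cldn6, which had the same value, 4.07, on all 4 arrays. The part of the erythroid, endothelial and eye markers in the Sox and POU3 values was not tested.

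The genes with the closest pattern were found from the 4 values of each tested gene after subtracting its mean. For Pou3f4, the member with the highest difference, they were Exoc3l2, Polrmt and Peg10, with a root mean square distance of 0.08 to 0.17 on the log2 scale over 4 arrays. For Sox3, the member with the lowest difference, they were Col23a1, Cfap410 and Gpn3, at a distance of 0.01 to 0.02. Exoc3l2 differed by 0.50, Polrmt by 0.53 and Peg10 by 0.55, while Col23a1 differed by -0.27, Cfap410 by -0.29 and Gpn3 by -0.28. With 4 arrays this likeness is a description.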

How the data were processed

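RNA of 2 Pax6 mutant and 2 wild-type telencephalon samples was hybridised to one-colour Affymetrix rat arrays, after biotin labelling of cRNA from 10 µg of total RNA, per the labels' protocols. The deposited table holds log2 values from GCRMA, which the submitters' processing notes name without a version. That the authors' scale is log2 was inferred from the range of values. The values were not normalized again. Arrays give no read depth, and their number limits the precision.

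The table held 31099 probe sets, of which 57 controls were left out. The platform annotation gave 1 symbol to 20826 of the remaining 31042, several to 436 and none to 9780. The Entrez identifiers of 20758 matched the RefSeq gene table (GRCr8), and 0 symbols changed. Probe sets with a mean under the 40th percentile (3.21) were left out (12417), and 18625 were tested. limma (version 3.58.1, R 4.3.3) fitted genotype with lmFit and eBayes. Benjamini-Hochberg adjustment ran over all tested probe sets (threshold 0.05). Each difference is mutant minus wild type, and SE is the moderated standard error. The code of the fit was tested on simulated data with a common SD for all probe sets and no array effects. The arrays here differ in both, so that test does not bear on the results. Upstream windows came from RefSeq.

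The genes named were every listed member with all its probe sets, Pax6, Fabp7, the 5 largest differences of the other Sox, other POU and progenitor lists, and the 3 genes closest to the highest and lowest member. Other genes, such as single markers, second probe sets, Nes, Sox4 and Sox17, were named after their values were seen, for their known roles. The members and lists were chosen with earlier results of these data known. The alternatives were other filters, median centring, quantile normalization, a pseudocount of 16, each array left out, the replicate number as a block and the mean over probe sets of a gene.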

Additional observations from a re-analysis of the deposited data

How the results depend on the processing

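Under 10 alternatives, limma called 0 of the 10 tested Sox and POU3 probe sets at an adjusted p of 0.05 (1 at an unadjusted p under 0.05 in the reported fit), and 93 of 99 values kept their sign. The 6 that did not came with an array left out. Without mutant replicate 2 they were Sox1 (-0.38), Sox11 (-0.39) and Sox21 (-0.12), and without wild-type replicate 1 Sox1 (-0.11), Sox11 (-0.18) and Sox2 1375153_at (-0.0077). With 1 array left out, the highest values were 0.42 for Sox1, 0.59 for Sox11, 0.47 for Sox21 and 0.45 for Sox2 1375153_at. With 1 array left out the median over the 8 genes ran from -0.041 to 0.45, the count of probe sets with both mutant arrays above from 3 to 9 and the count below from 1 to 4. The other settings kept the median between 0.18 and 0.22, and both counts at their reported values. Over all 18625 probe sets 0 passed (680 at an unadjusted p under 0.05), against 1 with the stricter filter, 2 with median centring and 2 with quantile normalization; the cause was not tested. Pou3f4 was dim under the stricter filter.

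Replicate numbers in the labels do not say what the arrays share. Deviations of same-numbered arrays correlated across tested probe sets (r = 0.43), a hint from the data, since genes are not independent. With the replicate block in limma, 0 members and 0 probe sets in all passed, and the lowest member adjusted p was 0.736. The block cut the SE of Pou3f4 to 0.073, against 0.66 without it (limma unadjusted p = 0.0082, adjusted p = 0.736), and 4 members were at an unadjusted p under 0.05: Pou3f4, Sox2 1381874_at, Pou3f3 and Sox3. The block also raised the share of all tested probe sets under that p to 6.41%, against 3.65% without it. Without the block the member count was 1. With quantile normalization it was 2 (Pou3f1 and Pou3f3), against 3.57% of all tested probe sets in that setting. It was 1 under the other filters, median centring and the pseudocount, against shares from 2.70% (stricter filter) to 3.88% (pseudocount). The number of arrays limits what could be called: the 95% interval of Sox11 spans -1.25 to 1.45.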
